A study of Homo sapiens with 6 samples.

Results

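The 10 genes described here encode ERK phosphatases (DUSP4, DUSP5, DUSP6 and DUSP7), Sprouty and SPRED inhibitors (SPRY2, SPRY4, SPRED1 and SPRED2) and ETS transcription factors (ETV4 and ETV5). They were taken by symbol from the 58735 genes that each count file lists. RNA was sequenced from cells labelled A549, an established line from a human non-small cell lung cancer, with the genotype given as WT. The 3 control libraries came from cells left untreated for 72 h, and the 3 B35 libraries from cells given 2 µM of B35, which the series names as an inhibitor of the demethylase LSD1, for the same time. No solvent is named for the control cultures. Nothing in the labels tells separate cultures from repeat libraries of 1 culture, so a p-value here measures the spread between libraries, which may be technical.

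ERK is the last kinase of the RAS, RAF and MEK cascade, which carries signals from receptor tyrosine kinases to the nucleus. Active ERK raises transcription of its own brakes. The DUSP phosphatases remove phosphate from ERK itself, while Sproutys and SPREDs act higher up, where receptors engage RAS and RAF. ETV4 and ETV5 belong to the PEA3 branch of the ETS family and are held down by the repressor Capicua (CIC) until ERK signalling relieves it. For that reason transcripts of these genes are widely used as readouts of ERK pathway output, although a transcript level is not a measure of ERK phosphorylation, and none was measured here.

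The deposited counts summed to between 17141478 and 18530670 per library. B35 replicate 1 had the highest level of its group in 8 of the 10 genes, and values without it are given where they change a call. Levels are given as CPM, counts scaled to library size. The 5 epithelial markers KRT8, KRT18, KRT19, EPCAM and CDH1 summed to 2160 to 2247 CPM in control and 1396 to 1739 CPM in B35 libraries, nearly all of it KRT8 and KRT18. These markers moved both ways. KRT8 fell (1.49-fold lower, edgeR adjusted p = 0.00611), EPCAM rose from 3.36 to 7.21 CPM (edgeR adjusted p = 0.00248), KRT18 and CDH1 did not pass, and KRT19 had too few counts to test. Markers of alveolar type II cells summed to 80.1 to 93.0 CPM in control and 102 to 110 CPM in B35 libraries, nearly all of it ABCA3, with SFTPA1 at 0. The 5 fibroblast markers summed to 27.1 to 27.3 and 19.8 to 22.7 CPM, the 5 endothelial markers to 5.91 to 9.28 and 7.80 to 9.71 CPM with KDR at 0, and the 5 leukocyte markers to between 1.21 and 1.55 CPM in all libraries with CD3E and LYZ at 0. The part of these marker shifts in the results was not tested. Some markers went against the cell line label. CDKN2A, which A549 is known to have lost by deletion, had 2041 to 3370 counts in every library, and ALDH1A1 and AKR1B10, known for high levels in A549, reached at most 14 and 26 counts. CDKN2A was looked at after the other markers had been seen, and the identity of the line was not tested. In bulk RNA a lower level can come from fewer cells of a type or from less RNA per cell, and these cannot be told apart.

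All 10 genes had enough counts to test, and 6 of them rose with B35 while none fell. The genes that rose were ETV4, DUSP6, ETV5, SPRY4, DUSP4 and SPRED2, in order of fold change from 2.64 to 1.33. Among all 14773 genes tested, 8.82% rose and 6.59% fell by the same rule (quasi-likelihood test of edgeR, Benjamini-Hochberg adjusted p below 0.05). No gene of the 10 fell at an unadjusted p below 0.05 either, nor by DESeq2 or limma-voom. At an unadjusted p below 0.05, 9 were higher, as were 2455 of all 14773 genes tested. In 9 of the 10 genes every B35 library lay above every control library, against 18.8% of all genes tested, with DUSP5 the exception. The median log2 fold change of the 10 genes was 0.42, beside 0.0067 over all genes tested. The count of rises was 3 without control replicate 1, where DUSP4, SPRY4 and SPRED2 lost their calls, and 2 when a gene had to exceed a 1.5-fold change, where DUSP6 and ETV4 passed. In those fits rises over all genes numbered 661 of 15163 and 151 of 14773, in the same order.

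**Figure D1:**
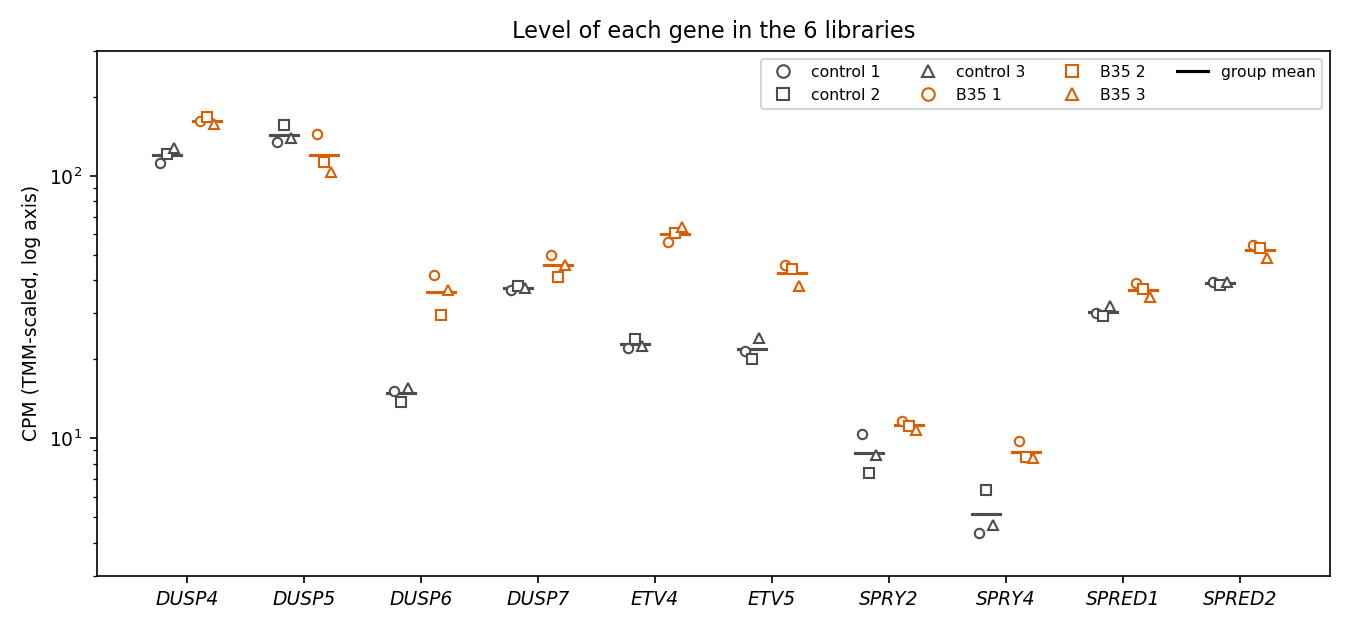
CPM (scaled by the TMM method of edgeR, log axis) of the 10 genes in each of the 6 libraries, with grey symbols for control, orange symbols for B35 and a bar at each group mean. The groups lie apart in 9 genes and overlap in DUSP5, where B35 replicate 1, at 145 CPM, sits among the controls.

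DUSP6 encodes a cytoplasmic phosphatase that acts on ERK with high selectivity (ENSG00000139318, chromosome 12, 89347232 to 89353271, minus strand, hg38). It stood at 15.2, 13.8 and 15.6 CPM in control replicates 1, 2 and 3 and at 42.0, 29.5 and 36.6 CPM in B35 replicates 1, 2 and 3. Every B35 library was well above the controls, and B35 replicate 2 was the lowest of them. The rise was 2.43-fold (log2 1.28 ± 0.14 SE, n = 3 each, edgeR adjusted p = 0.00043), and DUSP6 passed in each of the 16 other fits that were run. An antisense gene, AC024909.2, shares 1875 of the 4632 exon bases of DUSP6 but had only 1 to 4 counts in control and 6 to 8 in B35 libraries. No source used here states the strand setting of the counting, so reads of both genes cannot be told apart there.

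The RefSeq promoter window of DUSP6 (GRCh38.p14, 250 bases before to 50 after the annotated start, positions 89352452 to 89352751 of chromosome 12) is shown because it holds a pair of exact matches to an octamer bound by CIC. The letters TCAATGGA, TCAATGAA, TGAATGGA and TGAATGAA were searched on both strands, and this search was chosen after the DUSP6 window had been read. Both matches are TCAATGGA on the strand opposite the gene, so that the gene strand reads TCCATTGA, in capitals below. They begin 24 bases before and 2 bases after the start, counting the first transcribed base as 1. Both lie inside annotated exons of GENCODE 29, where exons of any gene on either strand were counted.
DUSP6, chr12:89352512-89352531: aatgtaTCCATTGAgacgct
DUSP6, chr12:89352487-89352506: tttgtaTCCATTGAggagct
Of 35116 windows of 300 bases, 0.51% held TCAATGGA, 3.77% held any of these octamers, and 1 window held TCAATGGA more than once, which was that of DUSP6. Counting all 4 octamers together, 115 windows (0.327%) held a pair or more.

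RefSeq windows were at hand for 6 of the 10 genes: DUSP6, DUSP7, SPRY2, SPRY4, SPRED1 and SPRED2. None of those of the other genes held a CIC octamer. The core TGACG of the cyclic AMP response element, present in 24.6% of all windows, was found in 1 window each of SPRED2, SPRY4 and SPRY2. The ETS core CCGGAA, present in 17.2%, was found in 1 window of SPRY2. Matches are in capitals, and on SPRED2 the gene strand reads the reverse complement.
SPRED2, chr2:65432559-65432575: ggaagaCGTCAtcgctt
SPRY4, chr5:142324305-142324321: gagccgTGACGgactga
SPRY2, chr13:80341306-80341322: tccacaTGACGccattt
SPRY2, chr13:80341257-80341274: cctcctCCGGAAaggcga
The full element TGACGTCA was in none of these windows and in 1.85% of all windows, and the AP-1 motif TGANTCA, in 7.71% of all, was found in 1 window of SPRED2. These motifs too were searched on both strands, and TGACGTCA contains TGACG. A match describes letters in a window and is no evidence of binding.

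DUSP4 and DUSP5 encode nuclear phosphatases of the same family. DUSP4 (ENSG00000120875, chromosome 8, 29333064 to 29350668) was at 112, 122 and 128 CPM in the controls and at 162, 168 and 158 CPM with B35, so that the groups did not overlap. It rose 1.35-fold (log2 0.43 ± 0.09 SE, n = 3 each, edgeR adjusted p = 0.00981), and the call was lost without control replicate 1 (edgeR adjusted p = 0.0556). DUSP5 (ENSG00000138166, chromosome 10, 110497838 to 110511544) was at 134, 156 and 139 CPM in the controls. With B35 it was at 145 CPM in replicate 1, among the controls, and at 113 and 104 CPM in replicates 2 and 3, below them. Its log2 fold change was −0.25 ± 0.13 (SE, n = 3 each, edgeR adjusted p = 0.205). Without B35 replicate 1 it passed as lower, at log2 −0.41 (edgeR adjusted p = 0.00762), and it was the only 1 of the 10 genes with a negative value.

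DUSP7 encodes another cytoplasmic ERK phosphatase (ENSG00000164086, chromosome 3, 52048919 to 52056550). Its level was 36.9, 38.1 and 37.3 CPM in the controls and 49.9, 41.3 and 45.8 CPM with B35. The groups did not overlap, but the value of 1.22-fold did not pass (log2 0.29 ± 0.10 SE, n = 3 each, edgeR adjusted p = 0.0826). The 4 phosphatase genes thus gave 2 rises and 2 genes that did not pass.

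Levels of different genes were compared per length with the FPKM values deposited by the authors. The 4 phosphatases summed to 80.9 ± 4.73 FPKM in control and 83.0 ± 9.69 FPKM in B35 libraries (SD, n = 3 each), a difference smaller than either SD. The makeup of that sum shifted. DUSP6 supplied 4.27%, 3.45% and 4.16% of it in the controls and 9.50%, 7.97% and 10.2% with B35, while DUSP5 supplied 67.4 ± 1.73% in control and 54.3 ± 3.40% in B35 libraries (SD, n = 3 each). The ratio of DUSP6 to DUSP5 had a mean of 0.059 in control and 0.169 in B35 libraries (geometric means of FPKM ratios), a log2 difference of 1.53. The same difference was 0.83 for DUSP6 to DUSP4 and 0.99 for DUSP6 to DUSP7. In all 3 ratios the groups did not overlap, and each gave p = 0.1 (two-sided exact permutation test over 6 libraries, adjusted p = 0.12 over 6 ratios), the smallest that 3 against 3 libraries allow.

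**Figure D2:**
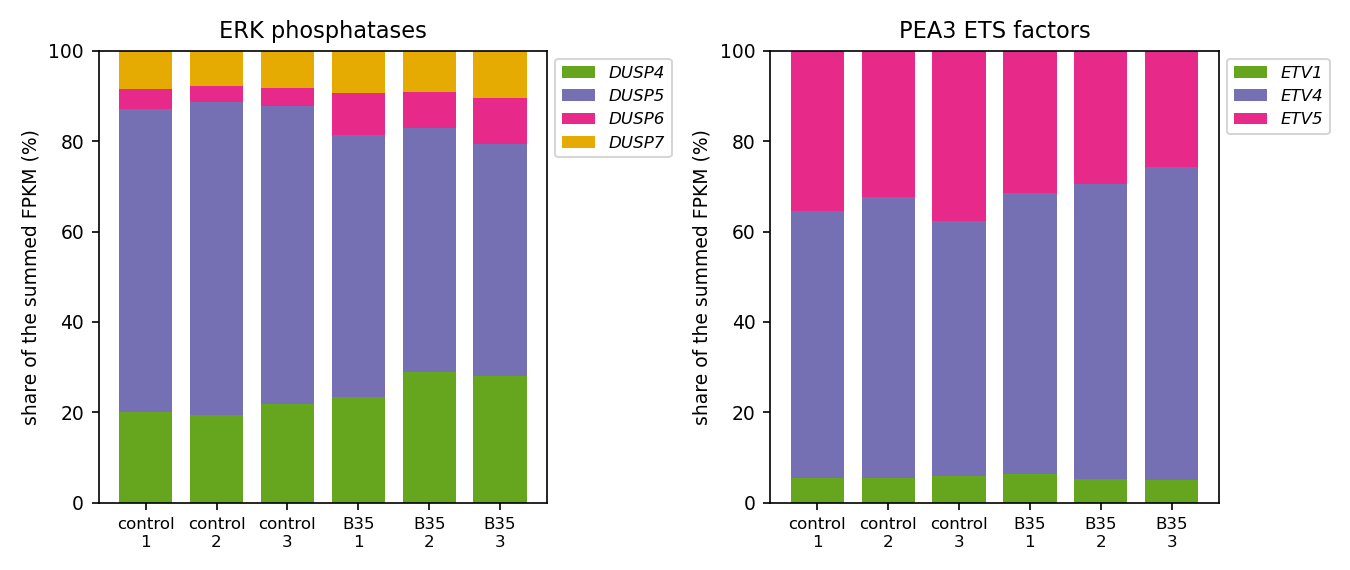
Share of each gene in the summed FPKM of the 4 ERK phosphatases (left) and of the 3 PEA3 factors (right) in each library, in percent. DUSP6 makes up 3.45% to 4.27% of the phosphatase sum in control libraries and 7.97% to 10.2% in B35 libraries, and the ETV1 share lies between 5.02% and 6.45% in all 6.

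ETV4 had the largest fold change of the 10 genes (ENSG00000175832, chromosome 17, 43527844 to 43579620, minus strand). It was at 22.2, 24.0 and 22.4 CPM in the controls and at 56.1, 60.8 and 64.1 CPM with B35, with a wide gap between the groups. The rise was 2.64-fold (log2 1.40 ± 0.10 SE, n = 3 each, edgeR adjusted p = 4.28e-05), passed in each of the 16 other fits, and exceeded the log2 fold change of 98.5% of all genes tested. DHX8, which shares 68 exon bases with ETV4, did not pass (log2 −0.14 ± 0.087, edgeR adjusted p = 0.321).

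ETV5 (ENSG00000244405, chromosome 3, 186046308 to 186110318) was at 21.5, 20.1 and 24.1 CPM in the controls and at 45.8, 44.4 and 38.2 CPM with B35. The groups were again far apart. It rose 1.95-fold (log2 0.97 ± 0.12 SE, n = 3 each, edgeR adjusted p = 0.00073), and DGKG, with 164 shared exon bases, had no count in any library. ETV1, the remaining PEA3 factor, rose 2.36-fold, from 5.46 to 6.24 CPM in the controls to between 12.4 and 15.5 CPM with B35 (log2 1.24 ± 0.15 SE, n = 3 each, edgeR adjusted p = 0.000702). The 3 PEA3 factors summed to 10.7 ± 0.325 FPKM in control and 25.2 ± 0.511 FPKM in B35 libraries (SD, n = 3 each). ETV4 supplied 59.2 ± 2.89% of that sum in control and 65.5 ± 3.64% in B35 libraries. The ratio of ETV4 to ETV5 in FPKM was 1.66, 1.92 and 1.49 in the controls and 1.97, 2.20 and 2.70 with B35 (exact permutation p = 0.1, n = 3 each, adjusted p = 0.12), so the groups were apart by a narrow margin. The transcript of CIC, named here after its value was seen, did not pass, at 140 ± 2.03 CPM in control and 134 ± 17.0 CPM in B35 libraries (SD, n = 3 each, edgeR adjusted p = 0.764).

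SPRY4 (ENSG00000187678, chromosome 5, 142310427 to 142326455) was at 4.35, 6.37 and 4.70 CPM in the controls and at 9.78, 8.49 and 8.43 CPM with B35. Control replicate 2 was the highest control but still below every B35 library. The rise was 1.73-fold (log2 0.79 ± 0.18 SE, n = 3 each, edgeR adjusted p = 0.0158), and it rests on 272 control and 486 B35 counts in all. Leaving out control replicate 1 ended the call (edgeR adjusted p = 0.0735), as did leaving out control replicate 3 (edgeR adjusted p = 0.0792).

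SPRY2 (ENSG00000136158, chromosome 13, 80335976 to 80340951) was at 10.4, 7.36 and 8.62 CPM in the controls and at 11.7, 11.2 and 10.8 CPM with B35. The B35 libraries were tightly grouped just above the highest control. The value of 1.27-fold did not pass (log2 0.35 ± 0.16 SE, n = 3 each, edgeR adjusted p = 0.156). SPRY1, a relative with too few counts to test, had no count in the controls and 8, 3 and 3 counts with B35. If the control group is taken to hold no more than 3 counts, an assumed limit for a count of 0, SPRY1 was at least 4.51-fold higher. The B35 count was taken as measured, so its spread is left out, and no confidence level goes with this bound. B35 replicate 1 held 8 of the 14 counts of SPRY1. The bound was 2.86-fold without that library and between 2.97-fold and 3.07-fold without any 1 of the controls.

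SPRED2 (ENSG00000198369, chromosome 2, 65310851 to 65432637) was at 39.5, 38.5 and 39.5 CPM in the controls and at 54.7, 53.3 and 48.8 CPM with B35. The controls were nearly level and all B35 libraries lay above them. It rose 1.33-fold (log2 0.42 ± 0.094 SE, n = 3 each, edgeR adjusted p = 0.0143). This was the call most often lost, without any 1 of the controls or B35 replicate 2 (edgeR adjusted p from 0.0539 to 0.0812). SPRED1 (ENSG00000166068, chromosome 15, 38252326 to 38357249) was at 29.9, 29.2 and 31.9 CPM in the controls and at 38.9, 37.1 and 34.5 CPM with B35. Its groups were also apart, but the value of 1.22-fold did not pass (log2 0.28 ± 0.10 SE, n = 3 each, edgeR adjusted p = 0.0844), except with trends on GC content and length removed (edgeR adjusted p = 0.0233). The ratio of SPRED1 to SPRED2 in FPKM moved little, by −0.13 on the log2 scale, with groups that did not overlap (exact permutation p = 0.1, n = 3 each, adjusted p = 0.12). For SPRY4 to SPRY2 the ratios overlapped between groups (exact permutation p = 0.4, n = 3 each, adjusted p = 0.4).

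Per length, the control levels ran from 54.6 ± 4.29 FPKM for DUSP5 down to 0.779 ± 0.162 FPKM for SPRY4 (SD, n = 3 each). DUSP4 came next to DUSP5, followed by SPRED2, DUSP7, ETV4, ETV5, SPRED1, DUSP6 and SPRY2. The ranges of 3 neighbouring pairs overlapped in the controls, namely DUSP7 with ETV4, ETV5 with SPRED1, and DUSP6 with SPRY2. With B35, ETV4 was the gene next below DUSP4 at 16.5 ± 1.06 FPKM, and DUSP6, at 7.67 ± 1.30 FPKM, overlapped DUSP7 and ETV5. Within the B35 group, replicate 3 had the lowest CPM in 7 of the 10 genes, and DUSP4 and ETV4 were the genes in which replicate 1 was not the highest.

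**Figure D3:**
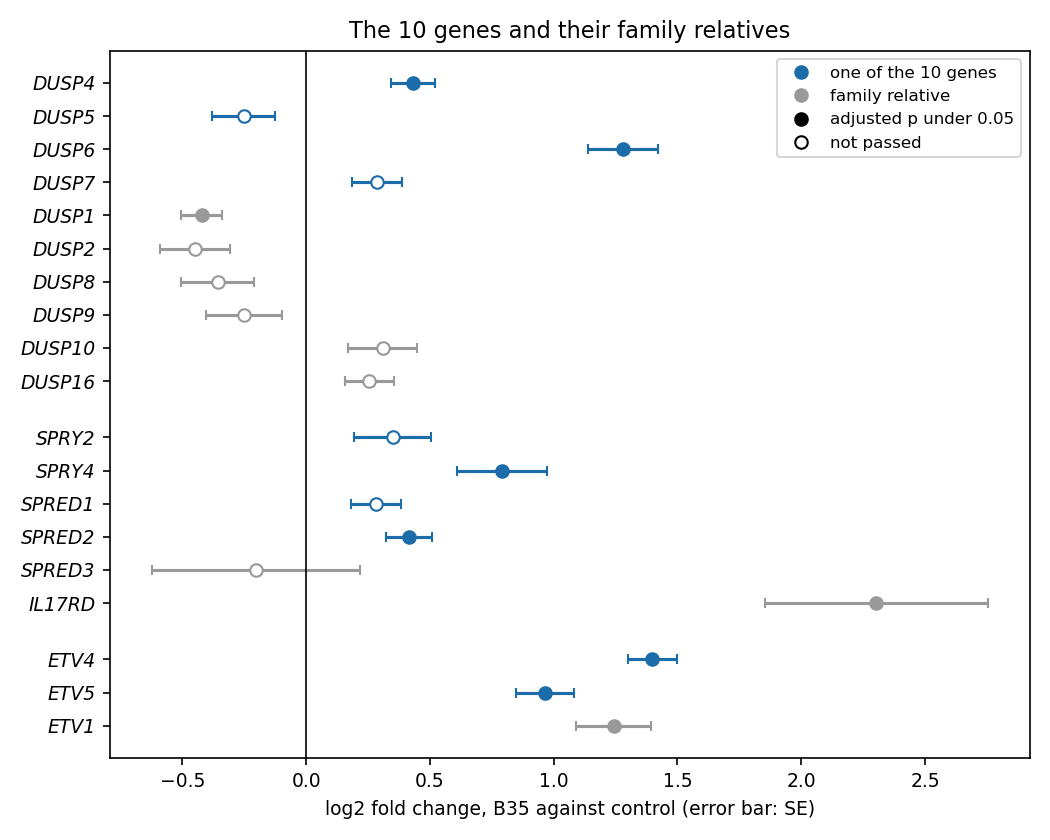
Log2 fold change of B35 against control with its SE for the 10 genes (blue) and tested family relatives (grey). The relatives drawn are those of the DUSP, Sprouty and SPRED genes and, of the other ETS factors, only ETV1. Filled points passed at an adjusted p below 0.05. The 3 PEA3 factors lie between 0.97 and 1.40, while DUSP1 passed on the lower side.

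Of 6 other MAP kinase phosphatases tested, none rose and DUSP1 fell, beside 8.82% of all genes tested that rose and 6.59% that fell. DUSP2, DUSP8, DUSP9, DUSP10 and DUSP16 did not pass, and the median log2 fold change of the 6 was −0.30. The count of rises was also 0 by DESeq2 and limma-voom, with 2 higher and 3 lower at an unadjusted p below 0.05. Falls numbered 2 by DESeq2, without a filter, with the replicate block and without B35 replicate 3, and 4 of the 6 fell and 1 rose with GC and length trends removed. Over all genes, falls numbered 1167 of 14773 by DESeq2 and 1273 of 27717 without a filter. They numbered 1261 of 14773 with the block and 633 of 15036 without B35 replicate 3. With GC and length trends removed, 1830 of all 14773 genes fell and 1998 rose. DUSP1, an immediate early phosphatase that prefers p38 and JNK, was abundant, at 2072, 2266 and 2155 CPM in the controls and 1608, 1575 and 1664 CPM with B35. It fell by 0.42 ± 0.083 on the log2 scale (SE, n = 3 each, edgeR adjusted p = 0.00742), a call lost without control replicate 3 (edgeR adjusted p = 0.0522). IL17RD, which encodes the FGF pathway inhibitor SEF, was the only 1 of 2 tested relatives of the Sproutys and SPREDs to rise. It went from 12 counts over the controls to 63 over the B35 libraries (log2 2.30 ± 0.45 SE, n = 3 each, edgeR adjusted p = 0.0074). The controls held 6, 2 and 4 counts, below the minimum count of 10, so IL17RD entered the test only through the B35 libraries. Of 18 other ETS factors tested, 3 rose and none fell, beside the same 8.82% and 6.59% of all genes tested. Those that rose were ETV1, EHF, an epithelial factor (2.11-fold), and ELK3, a partner of serum response factor (1.40-fold). No ETS factor fell by DESeq2 or limma-voom, and 1 was lower at an unadjusted p below 0.05. The call of ELK3 was lost without any 1 of the controls (edgeR adjusted p from 0.0531 to 0.101), and without B35 replicate 1 the counts were 6 higher and 2 lower. Of all 15074 genes tested without that library, 1822 were higher and 1520 lower.

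Of 27 tested genes of the cascade itself, from adaptors through RAS, RAF and MEK to ERK and its kinase targets, 1 rose and 1 fell, beside 15.4% of all genes tested that passed in either direction, with a median log2 fold change of −0.069. PTPN11, the SHP2 phosphatase that helps activate RAS, was 1.26-fold lower (266 ± 4.99 against 212 ± 6.35 CPM, SD, n = 3 each). RPS6KA2, a ribosomal S6 kinase, rose 2.61-fold from a level of 0.572 ± 0.209 CPM. Its control counts of 12, 6 and 12 would not have passed the filter alone, so it entered the test through the B35 libraries. Both calls were lost without any 1 of the controls and without B35 replicate 2 or 3 (edgeR adjusted p from 0.0541 to 0.115), and both genes share exon bases with a neighbour. In the cascade list 3 genes fell without B35 replicate 1, and 4 genes fell with GC and length trends removed. Over all genes, 1520 of 15074 and 1830 of 14773 fell in these fits, in the same order.

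Of 15 tested receptor tyrosine kinases, 2 rose and 1 fell, beside 8.82% and 6.59% of all genes tested. Their median log2 fold change was 0.22. ERBB3, a kinase-impaired partner of the other ERBB receptors, rose 1.81-fold, from 39.1 ± 4.68 to 70.7 ± 2.44 CPM (SD, n = 3 each, edgeR adjusted p = 0.000877). FGFR4, an FGF receptor, was 1.54-fold lower, at 25.8 ± 0.618 against 16.7 ± 2.20 CPM (SD, n = 3 each, edgeR adjusted p = 0.00797). The orphan receptor ROR1 rose 1.70-fold but lost its call without any 1 of the controls or B35 replicate 3 (edgeR adjusted p from 0.0534 to 0.089). The rises among receptors numbered 5 without B35 replicate 1 and 4 with GC and length trends removed. Over all genes, 1822 of 15074 and 1998 of 14773 rose in these fits, in the same order. Of 8 tested growth factor ligands, none rose and 1 fell, beside the same shares of all genes tested. Their median log2 fold change was −0.040. None rose by DESeq2 or limma-voom, and 1 was higher at an unadjusted p below 0.05. FGF18, the ligand that fell, was 2.31-fold lower, at 2.29 against 0.984 CPM, a call lost without any 1 of the controls or B35 replicate 2 (edgeR adjusted p from 0.061 to 0.0766).

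Of 18 tested brakes on RAS and ERK outside these families, 1 rose and 1 fell, beside 8.82% and 6.59% of all genes tested. Their median log2 fold change was 0.040. In this list 3 genes fell without B35 replicate 1, and 1520 of all 15074 genes tested fell in that fit. PEBP1, an inhibitor of the cascade that shares exon bases with VSIG10, was 1.39-fold lower, at 402 ± 6.03 against 289 ± 24.8 CPM (SD, n = 3 each, edgeR adjusted p = 0.00624). ERRFI1, an inhibitor of EGFR induced by EGFR signalling, rose 1.35-fold, a call lost without any 1 of the controls (edgeR adjusted p from 0.052 to 0.0762).

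Other transcripts read as ERK output rose in 8 of 15 tested genes and fell in none, beside 8.82% and 6.59% of all genes tested. Their median log2 fold change was 0.38. EPHA4, among the 8 that rose, had 10, 5 and 8 counts in the controls and entered the test only through the B35 libraries. The 7 that did not pass were EGR1, FOSL1, CCND1, EPHA2, SPHK1, TRIB1 and CIC. EGR1 was at log2 −0.02, FOSL1 at 0.07 and CCND1 at 0.06, while TRIB1, at 0.48, came closest to passing (edgeR adjusted p = 0.0517). CIC, listed here, is described above as a repressor that ERK signalling relieves. None of the 15 fell by DESeq2 or limma-voom, or at an unadjusted p below 0.05, and 1 fell with GC and length trends removed. With those trends removed, 1830 of all 14773 genes fell. IER3, an early response gene that acts on cell survival, rose from 88.8 ± 6.61 to 248 ± 27.3 CPM, and PHLDA1, a pleckstrin homology protein, from 87.1 ± 2.38 to 126 ± 6.85 CPM (SD, n = 3 each, edgeR adjusted p = 4.28e-05 and 0.00357). LIF, a cytokine, rose 1.59-fold, and MYC, a growth-promoting transcription factor, 1.28-fold. Leaving out control replicate 1, 2 or 3 left 2, 3 or 2 rises, and leaving out B35 replicate 3 left 5. Over all genes, 661 of 15163, 787 of 15132 and 587 of 15185 rose without control replicates 1, 2 and 3. Without B35 replicate 3, 957 of 15036 rose. Exons of IER3, PHLDA1 and LIF overlap antisense genes in part, as do those of ERRFI1 and ELK3. With the strand setting not stated, reads in the shared bases cannot be told apart from those of the antisense genes. LIF did not pass when control replicate 1 or control replicate 3 was left out (edgeR adjusted p = 0.0567 and 0.0613), nor did MYC without any 1 of the controls (edgeR adjusted p from 0.0518 to 0.0957).

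For each gene of the 10 that rose, the protein-coding gene with the most similar profile over the 6 libraries was found by root mean square distance between centred log2 CPM values. These genes were ITGA2 for DUSP6 (distance 0.054), DHRS3 for ETV4 (0.056), GNG4 for ETV5 (0.029), ZDHHC14 for DUSP4 (0.031), FBLN7 for SPRY4 (0.091) and B2M for SPRED2 (0.023). The measure covers 6 libraries in 2 groups, so it mostly reflects the size of the difference between them.

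**Figure D4:**
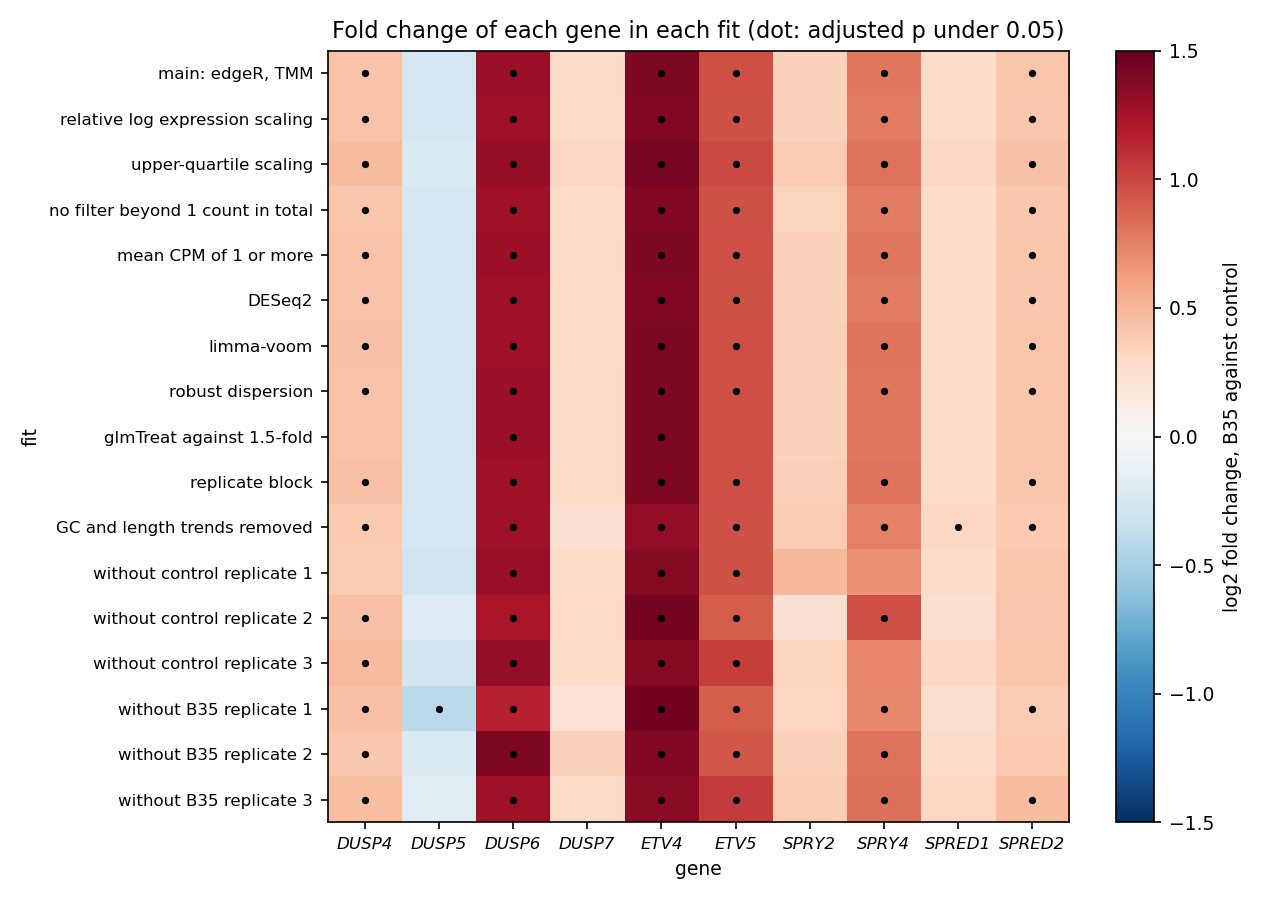
Log2 fold change of each gene (columns) in the edgeR fit reported here and in 16 alternative fits (rows), on a colour scale from blue (lower with B35) to red (higher), with a dot where the adjusted p was below 0.05. DUSP6 and ETV4 carry a dot in every fit, and DUSP5 only without B35 replicate 1.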

How the data were processed

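RNA of the 6 libraries was sequenced, and the submitters' processing notes name HISAT2 2.0.5, featureCounts 1.5.0-p3 and the build hg38. For every gene the authors deposited whole-number counts and FPKM values, whose scaling no source used here describes. Symbols, coordinates and exon overlaps came from GENCODE release 29. In R 4.3.3, filterByExpr removed low genes (minimum count 10, minimum total 15), TMM factors ran from 0.979 to 1.03, and counts went through the two-sided quasi-likelihood test in edgeR 4.0.16, with p-values adjusted by Benjamini-Hochberg over 14773 genes. The SE is the log2 fold change divided by the square root of F. FPKM ratios were tested by exact permutation. Alternatives used DESeq2 1.42.0, limma-voom (limma 3.58.1), other scalings and filters, omitted libraries, replicate number, and loess offsets for GC content and length. Listed genes were named by adjusted p, at most 4 per list, or by highest CPM where none passed. The 10 genes, the lists and the tests were chosen with earlier results of these data known.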

Additional observations from a re-analysis of the deposited data

How the results depend on the processing

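Each of the 10 genes kept the sign of its log2 fold change in all 16 alternative fits, and 6 rose and none fell under relative log expression or upper-quartile scaling, both other filters, DESeq2, limma-voom and robust dispersion. Against a 1.5-fold change 2 of the 10 rose, and with one library left out 3 to 6 rose and 0 to 1 fell, the fall being DUSP5 without B35 replicate 1. Among the 108 tested genes of the 8 pathway lists, 16 rose and 5 fell, beside 8.82% and 6.59% of all genes tested. Rises there numbered 2 against a 1.5-fold change and 6 to 21 with one library left out. Falls numbered 8 without a filter, 8 with DESeq2, 0 against a 1.5-fold change, 15 with GC and length trends removed, and 2 to 11 with one library left out. Over all genes, 151 of 14773 rose and 25 fell against a 1.5-fold change. Falls over all genes numbered 1273 of 27717 without a filter, 1167 of 14773 with DESeq2 and 1830 of 14773 with those trends removed. With 1 library left out, 587 to 1822 of all genes rose and 294 to 1520 fell, of 15036 to 15185 tested. The causes were not tested, although fits without a library use fewer samples. With the replicate number as a block 6 of the 10 genes rose and none fell, and 19 listed genes rose and 7 fell. Over all 14773 genes, 1594 rose and 1261 fell with that block. Correlations of same-numbered libraries were 0.24, 0.071 and −0.10, so the numbers were not taken to pair them. With one library left out, the differences in log2 ratio ran from 0.71 to 0.99 for DUSP6 to DUSP4, 1.41 to 1.63 for DUSP6 to DUSP5, 0.92 to 1.05 for DUSP6 to DUSP7, 0.31 to 0.53 for ETV4 to ETV5, 0.21 to 0.73 for SPRY4 to SPRY2 and −0.15 to −0.10 for SPRED1 to SPRED2. FPKM and CPM per exon length gave the same differences, but library scaling cancels in a ratio of 2 genes, so this was no separate check. IL17RD, at 12 control counts, RPS6KA2, at 30, and EPHA4, counted among the ERK output rises, at 23, rest on few counts. None of these genes would have passed the filter on the control libraries alone, so each entered the test through the group where it was higher. The bound for SPRY1 was recomputed without each library, an alternative chosen after seeing the data, and ran from 2.86 to 5.42.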
